A study of Mus musculus with 10 samples.

Results

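Mouse pancreatic ductal adenocarcinoma (PDAC) cells that had been stimulated with interferon gamma (IFNγ) and then sorted for high surface PD-L1 were compared, gene by gene, with IFNγ-stimulated cells taken over all PD-L1 levels. The comparison used 6 of the 10 RNA libraries of the series, 3 of PD-L1 high cells and 3 of treated cells of all levels (treated all). The 4 libraries of cells of all levels without IFNγ (untreated all) are given only as levels beside them. All are labelled as tumor cells of PDAC, a cancer of the exocrine pancreas. Per the labels, treated cells received recombinant mouse IFNγ for 20 hours, surface PD-L1 was read by flow cytometry to collect the cells, and 5 µg of total RNA went into each library. The strain is labelled C57BL/6 for treated all and untreated all, and C57BL/7, C57BL/8 and C57BL/9 for the 3 PD-L1 high libraries. Treated all can itself contain PD-L1 high cells and no group of PD-L1 low cells was compared, so the difference between the groups may be smaller than that between high and low cells. The labels give no separate cultures or sorts. A p-value here weighs a difference against the spread among these libraries alone, and that spread may be technical.

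PD-L1 is the ligand by which tumor cells engage the checkpoint receptor PD-1 on T cells. IFNγ, made by T and NK cells, binds a receptor whose Janus kinases activate STAT transcription factors. These switch on IRF1 and other interferon regulatory factors, which act on GAS and ISRE sequences in promoters and raise PD-L1, antigen presentation genes and GTPases that attack intracellular pathogens. PD-L1 on a tumor cell also answers to NF-κB, AP-1, growth factor and hypoxia signals and to protein turnover, and the genes of those routes are described here by role.

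What the authors deposited is a signal per gene, already normalized. The sources used here name neither its unit nor its relation to gene length, so levels are compared between libraries and not between genes. Library totals were 709318 to 711950 in PD-L1 high and 710894 to 715500 in treated all, and profiles of PD-L1 high and treated all libraries correlated over genes at 0.9812 to 0.9874, against 0.9869 to 0.9912 within PD-L1 high and 0.9901 to 0.9919 within treated all. The 8 tumor epithelial markers summed to 4772 to 4847 in PD-L1 high and 5268 to 5297 in treated all, mostly from keratins, while Epcam had 8.11, 8.47 and 9.24 in PD-L1 high, against 5.28, 4.47 and 5.27 in treated all. Keratin transcripts were thus present in every library, at a slightly lower sum in PD-L1 high. Markers of other cells were at or near 0 for lymphoid cells and above it for a few genes of macrophages, fibroblasts and acinar cells, and their part in the results was not tested. The 5 leukocyte markers summed to 0.687 to 1.52 in PD-L1 high and 1.26 to 7.81 in treated all, and the T and NK cell markers to 0 to 0.01 and 0.04 to 0.1, with Cd3e, Cd3g and Nkg7 at 0. The 8 macrophage markers summed to 111 to 113 in PD-L1 high and 102 to 103 in treated all, mostly from Cd14, with Adgre1 and Fcgr1 at 0. For the 7 fibroblast markers the sums were 140 to 150 in PD-L1 high and 126 to 137 in treated all, mostly from Col3a1 and with Lum at 0, and for the 7 acinar markers 21.1 to 28.8 and 15.2 to 20.1, with Prss1, Cpa1 and Pnlip at 0. Neutrophil markers summed to 12.1 to 13.8 in PD-L1 high and 9.73 to 10.5 in treated all, and B cell, endothelial and erythroid markers to at most 0.114, 0.512 and 1.56 in PD-L1 high and 0.15, 0.324 and 1.56 in treated all.

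Cd274, which encodes PD-L1, had a signal of 48.5, 46.2 and 47.7 in PD-L1 high, against 33.6, 32.2 and 33.2 in treated all and 2.39 to 2.79 in untreated all. All 3 PD-L1 high libraries lay above all 3 treated all libraries, with a log2 fold change of 0.51 ± 0.04 (SE; limma adjusted p = 1.2e-04). The cells were sorted on its protein, which makes this difference a check of the labels and not a finding. Pdcd1lg2, the gene of the second PD-1 ligand, was below the filter on low signal and was listed at 0 in the 3 PD-L1 high libraries, against 0.04, 0.04 and 0 in treated all.

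Many genes differed, nearly all by small factors. The test covered the 11487 genes whose mean signal reached 1. Of these, 2075 (18.1%) were called at a Benjamini-Hochberg adjusted p under 0.05 with limma, 944 higher (8.22%) and 1131 lower (9.85%) in PD-L1 high cells. The counts of each gene list below are to be read beside these shares of all genes. The median fold was 1.23 for the higher and 1.22 for the lower genes, and 530 and 664 of them differed by less than 1.25-fold. At least 1.5-fold differences were called for 96 higher and 117 lower genes (1.85% of those tested), and at least 2-fold ones for 10 higher and 24 lower genes (0.296%). The share of genes called was 9.14% at a mean signal under 5 and 36.3% at 100 or more. Groups without overlap were common. All 3 PD-L1 high libraries lay above all 3 treated all libraries in 1994 tested genes (17.4%), and below them in 2379 (20.7%). With upper-quartile scaling 1182 of the called genes were higher and 852 lower, and with median-ratio scaling 1094 and 924, so which side is larger depends on the scaling. Of the calls, 1051 were kept whichever library was left out. Without treated all library 1 or 3 the total was 1374 or 1382.

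**Figure D1:**
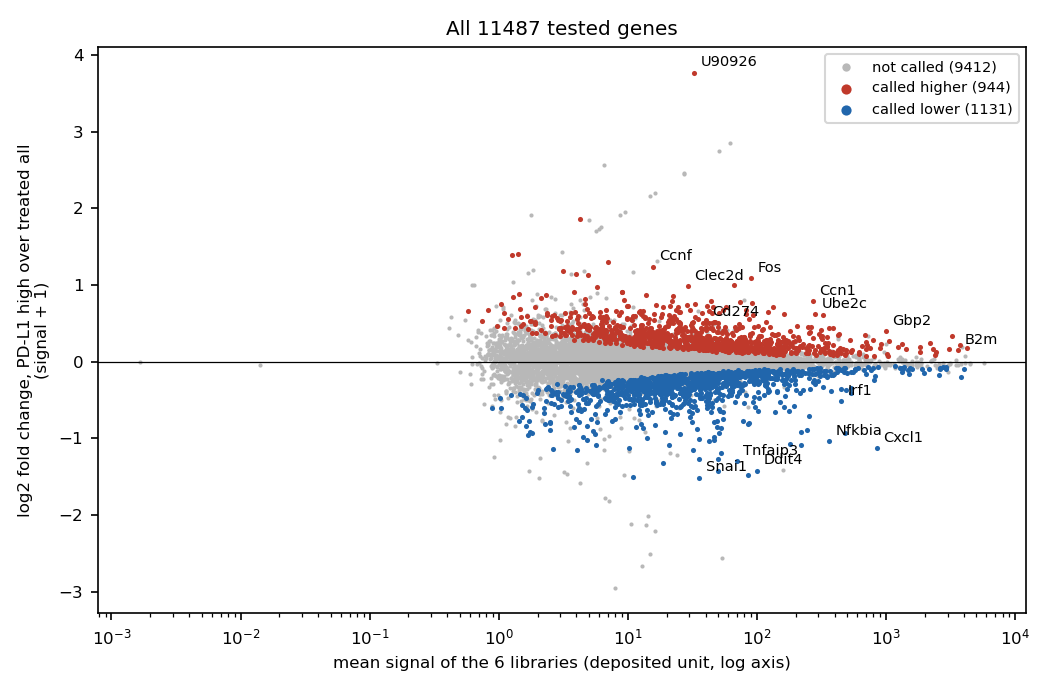
Each point is 1 of the 11487 tested genes, with the mean signal of the 6 libraries on a log axis against the log2 fold change of PD-L1 high over treated all, red for the 944 called higher, blue for the 1131 called lower and grey for genes not called. Called genes crowd within 1.5-fold of no change, and a few such as Fos and Ccnf above and Snai1 and Ddit4 below stand apart.

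Genes of mitosis were higher in PD-L1 high cells as a near-complete set, while most genes of DNA replication were not called. Of 63 tested genes of mitosis and the G2/M phase, 60 rose, 0 fell and 3 were not called, against 8.22% of all genes rising, and their median log2 fold change was 0.45 beside −0.01 over all genes. Of 48 genes of DNA replication and the G1/S phase, 2 rose, 13 fell and 33 were not called, with a median of −0.11. In bulk RNA, fewer cells of a type, here of a cell cycle phase, and less RNA per cell cannot be told apart. When any 1 library was left out, 55 to 58 genes of the mitosis list were called higher; 1 was called lower without PD-L1 high library 1 and 0 without any of the others.

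Many promoters of mitotic genes carry the cell cycle genes homology region (CHR), a short element near the start site that the DREAM and MuvB complexes bind. Of the 53 mitosis genes with a promoter window in RefSeq (GRCm38.p6, 250 bases before to 50 after the start), 36 (67.9%) held the CHR letters TTTGAA on either strand, against 6 of the 38 replication genes (15.8%) and 14% of the 9233 tested genes with a window. Over all genes the letters were in 22.9% of windows of genes called higher, 11.6% of those called lower and 13.4% of the rest; mitosis genes are part of the first group. The 4 stretches below, the 100 bases just before the start of genes that rose, show the element in capitals on the plus or minus strand of the gene; a match is a description of letters, not a shown site.
Ccnf, chr17:24251410-24251509, minus strand: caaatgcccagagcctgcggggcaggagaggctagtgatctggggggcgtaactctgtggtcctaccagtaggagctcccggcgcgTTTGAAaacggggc
Cdc20, chr4:118437344-118437443, minus strand: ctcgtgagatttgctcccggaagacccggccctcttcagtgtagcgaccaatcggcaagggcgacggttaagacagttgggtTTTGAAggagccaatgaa
Ube2c, chr2:164769829-164769928, plus strand: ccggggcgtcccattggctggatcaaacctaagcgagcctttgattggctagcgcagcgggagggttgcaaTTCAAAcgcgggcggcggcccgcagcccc
Kif11, chr19:37376282-37376381, plus strand: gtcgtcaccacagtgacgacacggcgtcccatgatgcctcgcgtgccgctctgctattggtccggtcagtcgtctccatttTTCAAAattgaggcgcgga

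The tested mitotic cyclins, with cyclin F counted among them, and their kinase and phosphatases were all higher. Ccnf, cyclin F, a ubiquitin ligase subunit, had a signal of 23.8, 20.7 and 22.3 in PD-L1 high, against 12.3, 7.28 and 7.68 in treated all, and 32.6 to 37.9 in untreated all. Ccnb1, cyclin B1, had 101, 103 and 99.3 in PD-L1 high, against 65.4, 63.1 and 60.2 in treated all. In neither gene did the groups overlap, and the log2 fold changes were 1.24 ± 0.18 (SE; limma adjusted p = 0.0041) and 0.67 ± 0.04 (adjusted p = 2.1e-05). Cdk1, the kinase partner of cyclin B1, differed by 0.38 ± 0.03, and the activating phosphatase gene Cdc25b by 0.63 ± 0.05. All 7 mitotic kinases tested rose, with a median of 0.50, among them Aurka at 0.71 ± 0.04, Aurkb at 0.50 ± 0.04, Plk1 at 0.67 ± 0.04 and the spindle checkpoint kinase gene Bub1 at 0.31 ± 0.04.

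Of 12 kinesins, the motors that build and pull apart the spindle, 11 rose and 1, Kif23 at 0.42 ± 0.12, was not called (limma adjusted p = 0.051). Kif11, the bipolar spindle motor, had 55.8, 54.8 and 56.2 in PD-L1 high, against 39.9, 36.7 and 38.7 in treated all, without overlap and at 0.52 ± 0.04 (limma adjusted p = 1.3e-04). Kifc5b and its near-identical relative Kifc1 were at 1.29 and 0.51, with the split of reads between these copies uncertain. Spindle-binding proteins rose too, with Nusap1 at 0.73 ± 0.04, Prc1 at 0.78 ± 0.05 and Fam83d at 0.85 ± 0.06. Exit from mitosis needs the anaphase-promoting complex. Its activator gene Cdc20 rose by 0.46 ± 0.03, and Ube2c, its ubiquitin-conjugating enzyme, had 341, 341 and 347 in PD-L1 high, against 219, 230.1 and 218 in treated all. All 3 PD-L1 high values of Ube2c were above all treated values and below the untreated range of 479.8 to 497. Top2a, which untangles chromosomes, was at 0.44 ± 0.03. The other members not called were the separase gene Espl1 at 0.66 ± 0.28 and the transcription factor gene Mybl2 at −0.19 ± 0.07, the lowest of the list. Foxm1, the transcription factor of the G2/M programme, rose by 0.33 ± 0.05.

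On the replication side, 5 of the 6 subunits of the MCM helicase fell, with a median of −0.21. The count was 5 without PD-L1 high library 1, but 4 without any of the other libraries and 4 with upper-quartile scaling. Mcm4 had 105, 105 and 109 in PD-L1 high, against 130.4, 128 and 129 in treated all, and 121 to 124 in untreated all. Its groups did not overlap and it differed by −0.28 ± 0.03 (limma adjusted p = 4.9e-04), with Mcm3 at −0.27 ± 0.04 and Mcm6 at −0.23 ± 0.03. Mcm7 was not called at −0.07 ± 0.03. The factors that load the helicase at origins, Cdc6 and Cdt1, fell by 0.41 and 0.36 on the log2 scale, the histone chaperone gene Chaf1b was at −0.40 ± 0.04, and E2f2, a transcription factor of G1/S, was the lowest of the list at −0.75 ± 0.08. The polymerase subunit genes Pola1, Pold1 and Pole were at −0.08, 0.02 and −0.15 and not called. The members that rose were Rrm2 at 0.15 ± 0.03, a subunit of ribonucleotide reductase, and Tk1 at 0.11 ± 0.02, the salvage thymidine kinase; both calls were lost without the variance trend (limma adjusted p = 0.0613 and 0.0794), and that of Rrm2 also without PD-L1 high library 2 or treated all library 1 (0.0505 and 0.0547). The list held 1 rise without treated all library 1. Among 27 tested replication-dependent histone genes 2 rose and 0 fell; 1 rose without PD-L1 high library 1 or 3 or treated all library 1 or 3, and 1 fell without PD-L1 high library 1 or 3 or treated all library 1.

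Inhibitors of the cyclin-dependent kinases and G1 cyclins went both ways, with 6 of 17 risen and 4 fallen; 4 or 5 rises and 1 or 2 falls were called with a library left out. Cdkn1a, which encodes p21, had 6.96, 6.62 and 7.53 in PD-L1 high, against 12.3, 10.4 and 10.4 in treated all, and 6.47 to 7.28 in untreated all. It fell by 0.58 on the log2 scale without overlap, while the INK4 family genes Cdkn2c and Cdkn2d rose by 0.49 ± 0.05 and 0.63 ± 0.07. Ccng2, an atypical cyclin tied to arrest, rose by 0.64 ± 0.06, and Ccnd1, the G1 cyclin, by 0.17 ± 0.03. Of 25 p53 target genes 4 rose and 3 fell, beside 8.22% and 9.85% of all genes, and their median was −0.06. The rises were 2 without PD-L1 high library 2 or treated all library 1 and 1 without treated all library 3, and the falls were 5 without PD-L1 high library 1.

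**Figure D2:**
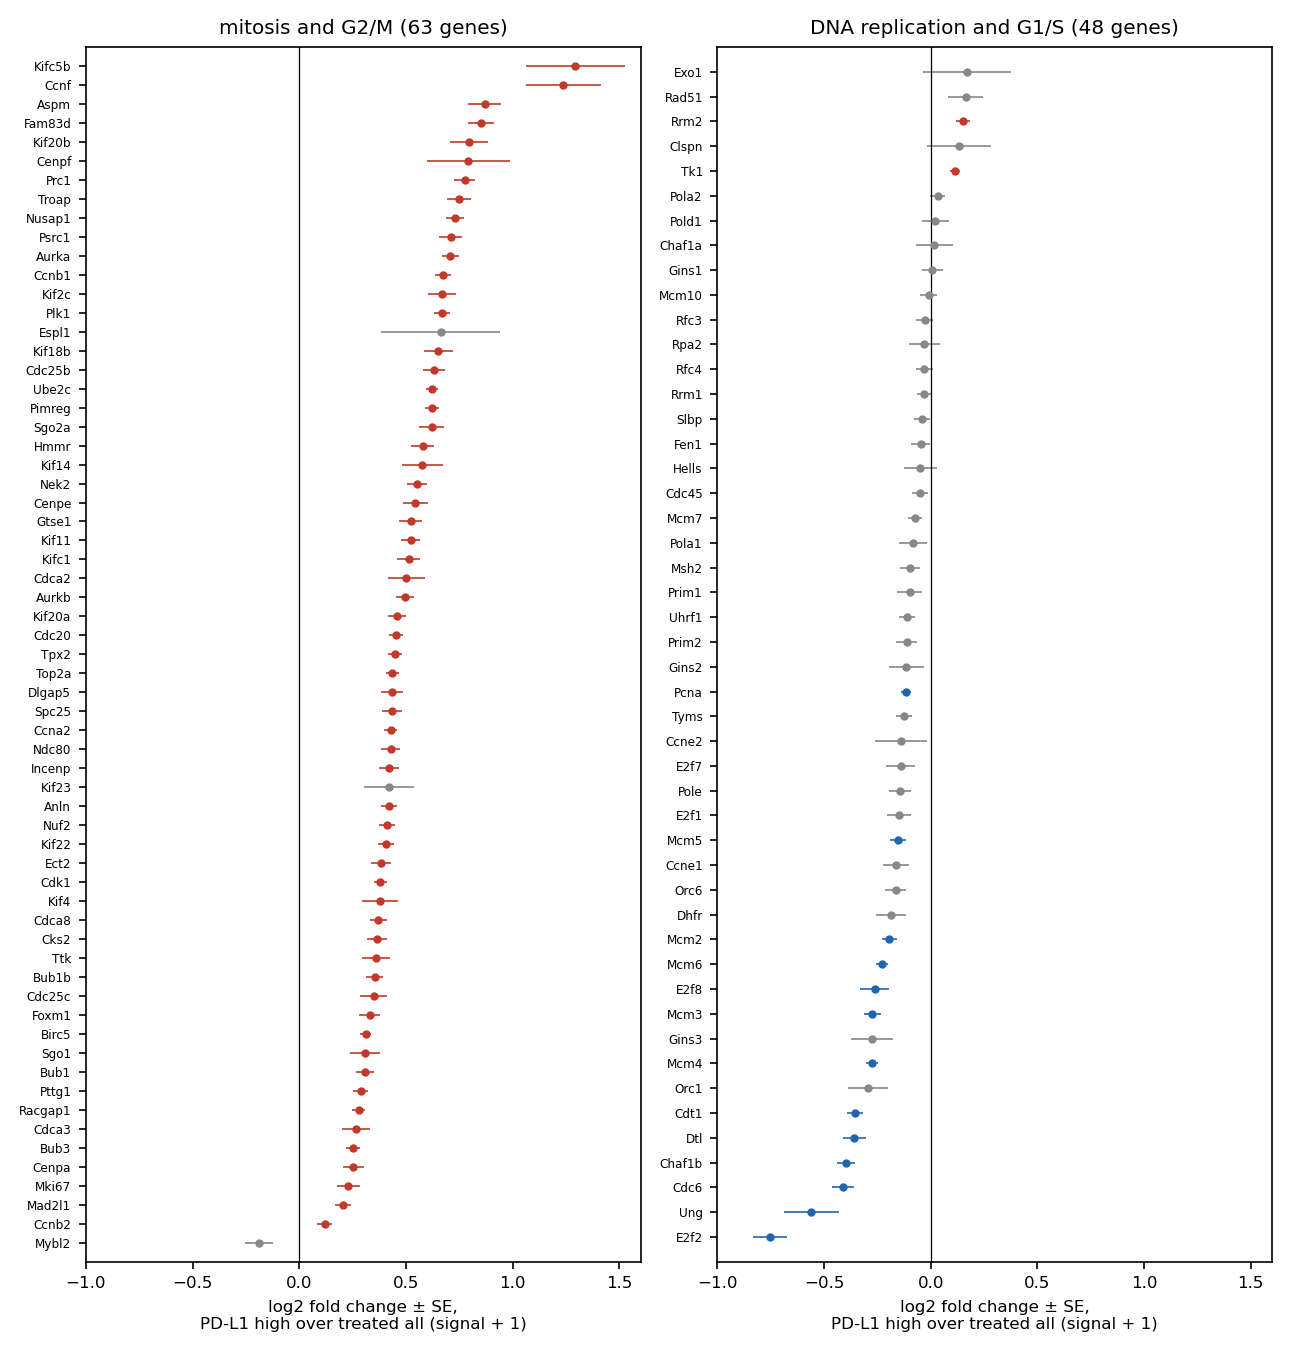
Log2 fold change of PD-L1 high over treated all with its SE for each tested gene of the mitosis list (left, 63 genes) and the replication list (right, 48 genes), sorted by value; red and blue mark genes called higher and lower, grey genes not called. All but 1 of the mitosis genes lie right of 0, and the 13 called lower on the right panel reach −0.75 for E2f2.

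Effectors of the interferon response stood higher in PD-L1 high cells even though both groups had received IFNγ. Guanylate-binding proteins and immunity-related GTPases break open the vacuoles in which pathogens hide. Of 18 tested, 18 rose, by 0.20 to 0.45 on the log2 scale and with a median of 0.35, beside 8.22% of all genes rising. With any 1 library left out 18 were again called higher, against 14 in the fit of all 10 libraries and 16 in that of 8. Gbp2 had 1110.1, 1122 and 1150.4 in PD-L1 high, against 866, 836 and 871 in treated all, and 3.99 to 5.10 in untreated all. Gbp5 had 59.6, 57.7 and 57.5 in PD-L1 high, against 43.7, 40.7 and 42.8 in treated all, and Iigp1 had 337, 342 and 337 in PD-L1 high, against 273, 256 and 264 in treated all. Within each of these genes the 2 treated groups did not overlap, at 0.39 ± 0.02 (limma adjusted p = 2.4e-05), 0.45 ± 0.04 and 0.35 ± 0.03. Guanylate-binding proteins (11) and immunity-related GTPases (6) had like medians, both 0.35. Tgtp1 and Tgtp2 are near-identical copies, so their separate values are uncertain.

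Of the 10 genes of this list with a promoter window, 10 held the core letters of the interferon-stimulated response element (ISRE), GAAA, any 2 bases and GAAA on either strand, against 3.82% of all genes tested with a window, and 6 held the GAS letters TTCNNNGAA, against 8.2%. Both letter sets are searched on both strands, and the GAS letters may overlap ISRE matches. Over all genes the ISRE letters were in 9.33% of windows of genes called higher, 3.18% of those called lower and 3.36% of the rest. Genes of this list are part of the first group. The GAS letters were in 8.4%, 8.11% and 8.19%, nearly the same share in each. The 3 stretches below are the 100 bases just before the start, with ISRE matches in capitals; in Gbp3 and Irgm1 a pair of matches overlaps.
Gbp2, chr3:142620563-142620662, plus strand: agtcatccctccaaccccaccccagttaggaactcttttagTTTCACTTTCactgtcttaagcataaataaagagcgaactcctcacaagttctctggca
Gbp3, chr3:142559944-142560043, plus strand: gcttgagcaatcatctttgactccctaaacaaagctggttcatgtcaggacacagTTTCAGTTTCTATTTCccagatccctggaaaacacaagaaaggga
Irgm1, chr11:48871421-48871520, minus strand: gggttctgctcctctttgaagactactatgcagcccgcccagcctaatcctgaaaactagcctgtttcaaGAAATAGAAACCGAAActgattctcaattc

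Of 37 antiviral effectors 20 rose, 0 fell and 17 were not called, with a median of 0.24. The rises were 18 or 19 with a library left out and 15 in the fit of 8 libraries. The IFIT genes, whose proteins bind viral RNA, rose in 5 of 5 cases with a median of 0.60. Ifit3 had 29.4, 29.7 and 29.3 in PD-L1 high, against 17.9, 17.9 and 18.6 in treated all, and 0.573 to 0.632 in untreated all. Ifit1 had 6.18, 6.77 and 6.89 in PD-L1 high, against 3.96, 3.85 and 4.27 in treated all. Both genes were higher in every PD-L1 high library, at 0.67 ± 0.05 (limma adjusted p = 5.7e-05) and 0.60 ± 0.08. Of 6 OAS genes, which sense double-stranded RNA, 4 rose, or 3 with any 1 library left out. Oasl2 was at 0.45 ± 0.03, and Slfn2 was at 0.46 ± 0.02. The 3 cytosolic RNA sensors and the 3 IFITM genes tested had no call, with medians of 0.06 and 0.03. ISRE letters were in 15 of 29 antiviral windows (51.7%). Among 10 PARP and DTX antiviral factors 6 rose, or 4 or 5 with a library left out, and 0 fell, with Parp14 at 0.34 ± 0.04. Of 35 TRIM ubiquitin ligases 4 rose and 1 fell, beside 8.22% and 9.85% of all genes, and their median was −0.01. The TRIM rises included Trim21 at 0.43 ± 0.08, and 2 TRIM genes fell without PD-L1 high library 3 or treated all library 2.

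Several genes of antigen presentation by MHC class I were slightly higher. Of 14 genes that make, carry and load peptides, 8 rose and 0 fell, with a median of 0.15; the count was 5 in a fit that also held untreated libraries 1 and 2. B2m, the light chain, had 3816, 3851 and 3753 in PD-L1 high, against 3430.2, 3451 and 3379 in treated all. Its groups did not overlap, at 0.15 ± 0.02 (limma adjusted p = 4.8e-04), and the immunoproteasome subunit genes Psmb8 and Psmb9 were at 0.17 ± 0.02 and 0.19 ± 0.03. The tapasin gene Tapbp was at 0.15 ± 0.02. Heavy chains rose in 5 of 10 cases, with the nonclassical H2-T23 at 0.34 ± 0.03, and reads of H2 genes can be split uncertainly among near-identical copies. Of 31 constitutive proteasome subunits 0 rose and 9 fell, by at most 0.21, a count that was 2 to 6 with a library left out and 3 with upper-quartile scaling. For class II, Cd74 and Ciita were at 0.06 ± 0.04 and −0.03 ± 0.10 and not called (limma adjusted p = 0.3 and 0.85).

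The signalling chain upstream of these effectors showed no common direction. Of 13 tested genes of the receptor, its kinases and its transcription factors, 2 rose, 2 fell and 9 were not called. The rises were 1 without PD-L1 high library 3 or treated all library 1 or 3, and the falls 1 without PD-L1 high library 1 or 3 or treated all library 1 or 2. Irf1, a first-wave transcription factor of the response, had 378, 362 and 371 in PD-L1 high, against 529.7, 525 and 536 in treated all, and 33.9 to 38.9 in untreated all. It was lower in every PD-L1 high library, at −0.52 ± 0.02 (limma adjusted p = 7.0e-06), while Nlrc5, the class I transactivator, was higher at 0.32 ± 0.06. Jak1, Jak2 and Ifngr1 were at −0.07 ± 0.04, 0.04 ± 0.05 and 0.03 ± 0.03, and Stat2 and Irf9, parts of the factor that binds the ISRE, at 0.07 ± 0.06 and 0.08 ± 0.05; none was called. Of 17 feedback inhibitors of JAK-STAT signalling 1 rose and 2 fell, with 2 risen without PD-L1 high library 2 and 4 fallen without treated all library 2. Socs1, which blocks the IFNγ receptor kinases, had 10.4, 10.4 and 9.99 in PD-L1 high, against 6.71, 5.75 and 5.82 in treated all, and 1.45 to 1.90 in untreated all. Socs3, which acts on receptors of the IL-6 family, had 137, 136 and 142 in PD-L1 high, against 215, 217 and 218 in treated all. They moved in opposite directions without overlap, at 0.67 ± 0.08 (limma adjusted p = 7.2e-04) and −0.64 ± 0.03 (adjusted p = 4.5e-06), and Sh2b3 fell by 0.34 on the log2 scale.

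The regulators of PD-L1 did not share a direction. Of 13 transcription regulators 1 rose, Fos, and 4 fell, Atf3, Irf1, Hif1a and Nfe2l2, at −0.80, −0.52, −0.31 and −0.27; 3 rose with upper-quartile or median-ratio scaling. Myc and Yap1 were at 0.10 ± 0.03 and −0.06 ± 0.04 and not called. Of 25 genes of PD-L1 trafficking, glycosylation and turnover 4 rose and 1 fell, beside 8.22% and 9.85% of all genes, and their median was 0.05. The rises were 1 without PD-L1 high library 2 and 2 without PD-L1 high library 1 or treated all library 2, and the falls 0 without PD-L1 high library 1 or 2 or treated all library 3 and 2 without PD-L1 high library 3. Cmtm6, whose protein keeps PD-L1 at the cell surface in human cells, was at 0.05 ± 0.05 (limma adjusted p = 0.58). Ccnd1, whose kinase complex promotes the degradation of PD-L1, was the member that rose with a call kept in every fit.

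Other ligands of T and NK cells went both ways. Clec2d, which encodes a ligand of an inhibitory NK cell receptor, had 41.3, 39.5 and 36.7 in PD-L1 high, against 17.4, 19.1 and 21.4 in treated all, and 11.6 to 12.5 in untreated all. Vcam1, an adhesion ligand for leukocyte integrins, had 59.1, 57.2 and 59.8 in PD-L1 high, against 82.6, 78.4 and 80.0 in treated all. Clec2d was higher and Vcam1 lower in every PD-L1 high library, at 0.99 ± 0.08 (limma adjusted p = 1.2e-04) and −0.45 ± 0.04 (adjusted p = 1.3e-04). Icosl, the ligand of the costimulator ICOS, fell by 0.46 on the log2 scale and Pvr, the ligand of TIGIT and CD226, by 0.31. Of the 20 tested genes of this list, Cd274 included, 5 rose and 5 fell; the rises were 3 without treated all library 1 or 3, and the falls 3 without treated all library 1 or any of the PD-L1 high libraries. Immunoregulatory enzymes also went both ways, with 2 of 4 risen and 1 fallen, or 2 fallen without PD-L1 high library 3. Ido1, which degrades tryptophan, had 26.5, 23.8 and 25.1 in PD-L1 high, against 16.4, 17.8 and 16.4 in treated all. Nos2, which makes nitric oxide, had 25, 25.6 and 25.4 in PD-L1 high, against 16.7, 15.8 and 16.5 in treated all, and Ptgs2, which makes prostaglandins, had 76.1, 76.4 and 78.4 in PD-L1 high, against 122, 109.5 and 119 in treated all. The first pair was higher and Ptgs2 lower without overlap, at 0.55 ± 0.06, 0.60 ± 0.05 and −0.59 ± 0.04.

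**Figure D3:**
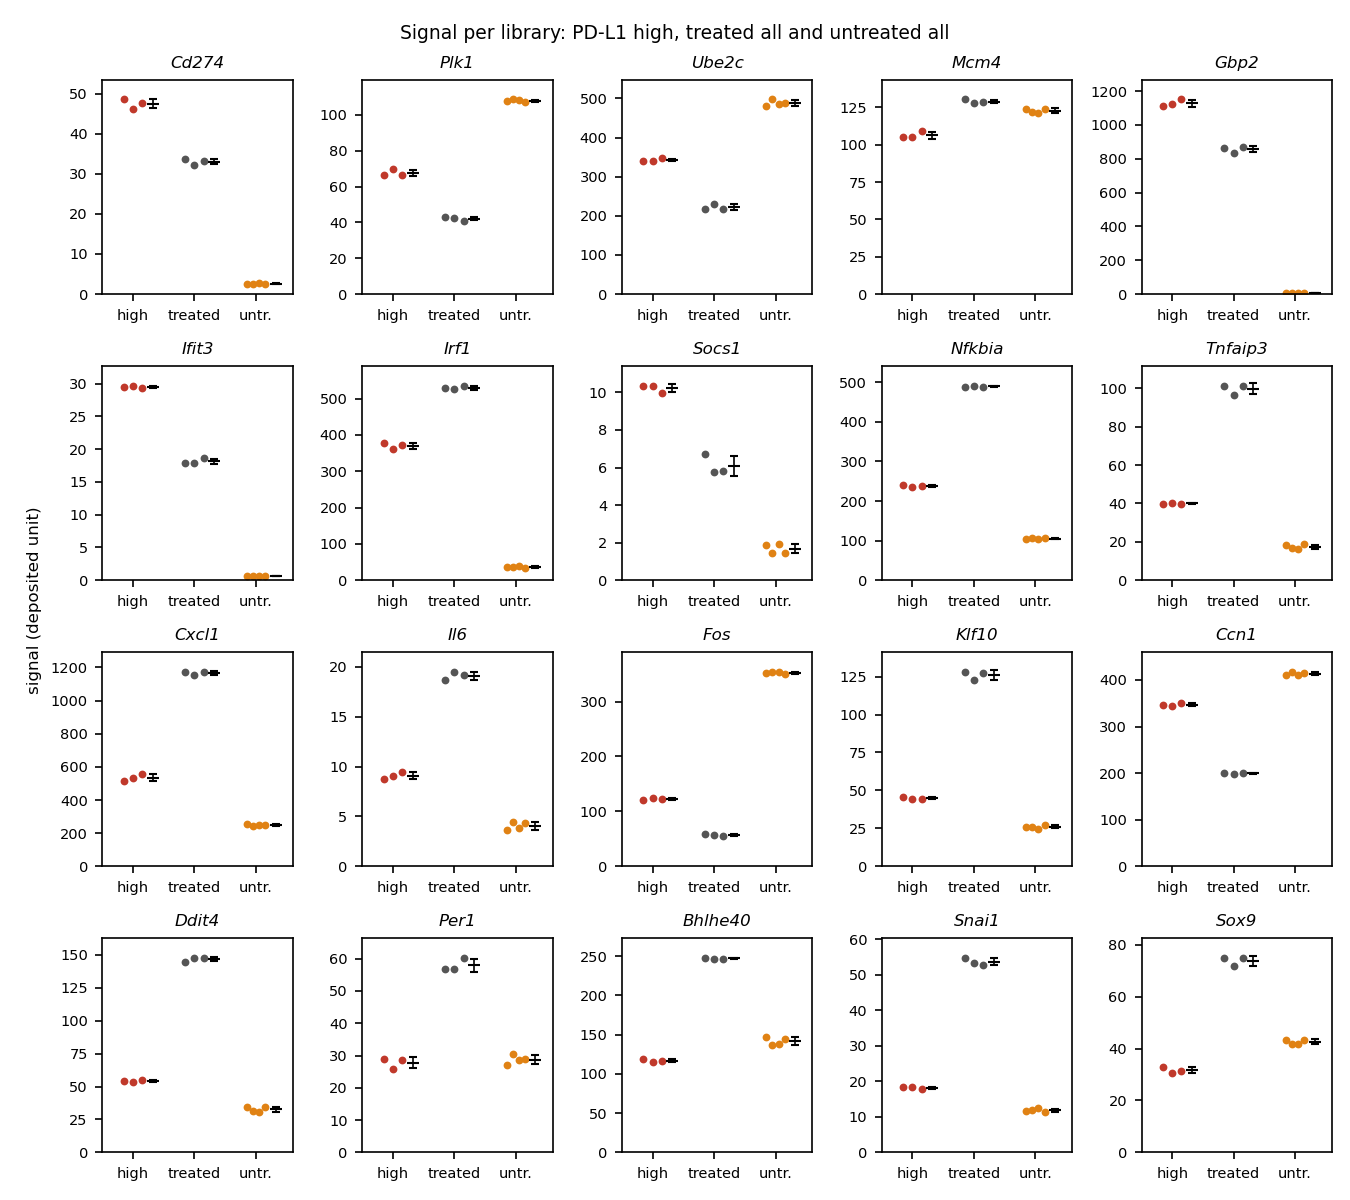
Signal of 20 genes in every library, with PD-L1 high on the left (red, 3 libraries), treated all in the middle (grey, 3) and untreated all on the right (orange, 4); the bar beside each group is its mean ± SD, and each panel starts at 0. PD-L1 high and treated all do not overlap in any of the 20 panels. Over all tested genes, every PD-L1 high library lay above every treated all library in 17.4% and below in 20.7%.

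Transcripts of NF-κB inhibitors were lower in PD-L1 high cells. NF-κB factors are held in the cytoplasm by IκB proteins, and active NF-κB induces genes of its own inhibitors. Of 24 tested subunits, inhibitors and feedback genes 1 rose and 10 fell, beside 9.85% of all genes falling, and the median was −0.07. The 6 IκB family and A20 genes all fell, with a median of −0.75. Nfkbia had 241, 236 and 237 in PD-L1 high, against 489, 492 and 489 in treated all, and 104 to 106 in untreated all. Tnfaip3, which encodes A20, had 39.8, 40.3 and 39.8 in PD-L1 high, against 101, 96.4 and 101 in treated all, and 16.3 to 18.7 in untreated all. Every PD-L1 high library was below every treated one, at −1.04 ± 0.02 (limma adjusted p = 1.7e-07) and −1.30 ± 0.04 (adjusted p = 3.3e-07). Nfkbie was at −0.84 ± 0.10 and Nfkbiz at −0.65 ± 0.03. Among the 5 subunit genes 3 fell, led by Rel at −0.91 ± 0.09, while Rela and Nfkb1 were at −0.01 ± 0.05 and −0.01 ± 0.05 and not called. Ikbke, an IκB kinase relative, was the gene that rose, at 0.48 ± 0.08, while Chuk, Ikbkb and Ikbkg were at −0.08, 0.09 and 0.03 and not called.

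Most called chemokines were lower. Of 14 tested 2 rose and 6 fell. The number of falls was 6 under each alternative setting, while 3 rose without treated all library 1 and 1 rose without any of the other libraries. Cxcl1, an attractant of neutrophils, had 513, 535 and 555 in PD-L1 high, against 1174, 1153 and 1171 in treated all, and 244 to 256 in untreated all. Cxcl2, of the same kind, had 28.3, 31.5 and 27 in PD-L1 high, against 67.5, 70.2 and 76.2 in treated all, and Ccl20, the CCR6 ligand, had 4.11, 5.99 and 5.90 in PD-L1 high, against 8.95, 10.5 and 9.88 in treated all. All 3 were lower without overlap, at −1.12 ± 0.03, −1.27 ± 0.07 and −0.78 ± 0.13 (limma adjusted p = 3.1e-07, 1.6e-05 and 0.005). Ccl5, an attractant of T cells, had 10.5, 12.6 and 9.99 in PD-L1 high, against 6.66, 6.61 and 6.61 in treated all, and rose by 0.65 ± 0.09 (limma adjusted p = 0.0019). Of the tested ligands of CXCR3, which draw activated T cells, Cxcl10 fell by 0.25 on the log2 scale and Cxcl9 was at 0.39 ± 0.12 and not called (limma adjusted p = 0.054). Cxcl9 had 3.80, 4.11 and 4.35 in PD-L1 high, against 3.40, 2.34 and 3.0 in treated all. It was called higher without treated all library 1, with all 10 libraries in the fit, with a pseudocount of 5, and with median-ratio or upper-quartile scaling.

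The κB letters, GGG, any 2 bases and TTTCC on either strand, were in 7 of 19 windows of the NF-κB list (36.8%) and in 5 of 10 of the chemokine list, against 2.04% of all windows, 2.4% of those of genes called higher and 3.4% of those called lower. Of the 5 chemokines with a match, Cxcl1, Cxcl2, Cxcl3 and Ccl20 fell and Ccl9 was not called. The stretches of 100 bases before the start of 4 genes that fell are given with the κB matches in capitals.
Nfkbia, chr12:55492648-55492747, minus strand: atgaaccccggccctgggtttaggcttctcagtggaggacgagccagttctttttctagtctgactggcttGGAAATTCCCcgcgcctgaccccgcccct
Tnfaip3, chr10:19015411-19015510, minus strand: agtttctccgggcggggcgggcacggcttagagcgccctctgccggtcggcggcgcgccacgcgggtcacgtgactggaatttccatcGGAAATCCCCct
Cxcl1, chr5:90891145-90891244, plus strand: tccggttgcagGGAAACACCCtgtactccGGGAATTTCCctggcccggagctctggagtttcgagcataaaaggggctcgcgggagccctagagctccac
Cxcl2, chr5:90903799-90903898, plus strand: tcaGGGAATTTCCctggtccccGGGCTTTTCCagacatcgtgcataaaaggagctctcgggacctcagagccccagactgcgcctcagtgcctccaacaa

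Of 29 cytokines and growth factors 0 rose and 10 fell, with a median of −0.15; 2 rose without treated all library 3. Il6, an inflammatory cytokine, had 8.73, 9.08 and 9.51 in PD-L1 high, against 18.7, 19.5 and 19.2 in treated all, and 3.63 to 4.47 in untreated all. Vegfa, which drives vessel growth, had 169, 169.9 and 175 in PD-L1 high, against 317, 318 and 324 in treated all. Both were lower in each PD-L1 high library, at −1.0 ± 0.06 and −0.90 ± 0.02, as were Csf3, the granulocyte factor, at −1.09 ± 0.08, Lif at −0.93 ± 0.04 and Gdf15, a stress cytokine, at −0.93 ± 0.02. Complement genes went the other way, with 7 of 12 risen, 0 fallen and a median of 0.29. C3, the central component, had 20.6, 20.7 and 21.8 in PD-L1 high, against 11.1, 12.8 and 12.7 in treated all, a difference of 0.74 ± 0.07 (limma adjusted p = 2.6e-04) without overlap, and C1s1 and Clu were at 0.33 ± 0.04 and 0.45 ± 0.02.

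Immediate early genes split into a large lower and a small higher group. Of 38 transcription factor genes of the AP-1, EGR and related families 25 fell and 4 rose, with a median of −0.30, beside 9.85% and 8.22% of all genes. Klf10 had 45.5, 44.2 and 44.6 in PD-L1 high, against 128, 123 and 127 in treated all, and 24.8 to 27.1 in untreated all. Fos had 120.1, 125 and 123 in PD-L1 high, against 59.1, 57.1 and 55.3 in treated all, and 351 to 354 in untreated all. They moved in opposite directions, without overlap, at −1.47 ± 0.03 (limma adjusted p = 2.1e-07) and 1.09 ± 0.04 (adjusted p = 8.7e-07). Fos was joined by Egr1 at 1.0 ± 0.05 and Ier2 at 0.41 ± 0.04, the other rises with calls kept in every fit. The FOS and JUN family did not move together: of 7 members Fos rose and 5 fell, such as Fosl2 at −0.59 ± 0.05, Fosl1 at −0.53 ± 0.04 and Junb at −0.41 ± 0.02. Atf3, a stress-induced repressor, was at −0.80 ± 0.03 and the nuclear receptor gene Nr4a1 at −0.71 ± 0.02. AP-1 letters, TGANTCA, were in 3 of 29 windows of this list (10.3%), against 6.12% of all windows, 7.87% of those called higher and 6.68% of those called lower. The CRE letters TGACGTCA were in 2 of the 29 windows (6.9%), against 3.76% of all windows, 2.67% of those called higher and 4.49% of those called lower. The CArG box of serum response factor was in 3 of the 29 (10.3%), against 1.45%, 1.47% and 1.86%.

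The feedback genes of RAS-MAPK signalling also went both ways, with 2 of 19 risen and 8 fallen. Dual-specificity phosphatases switch off MAP kinases. Dusp1 had 116, 111 and 112 in PD-L1 high, against 75.1, 72.5 and 72.4 in treated all, and 303 to 307 in untreated all. Dusp4 had 62.8, 59.2 and 62.9 in PD-L1 high, against 109.6, 104 and 112 in treated all. Dusp1 was higher and Dusp4 lower in each PD-L1 high library, at 0.61 ± 0.03 (limma adjusted p = 1.7e-05) and −0.81 ± 0.04 (adjusted p = 1.2e-05), with Dusp6 at 0.36 ± 0.04 and Errfi1, a brake on the EGF receptor, at −0.58 ± 0.03. Targets of YAP and TEAD, the output of the Hippo pathway, were more often higher, with 8 of 20 risen and 1 fallen and a median of 0.06. Ccn1, a matricellular protein gene, had 347, 343 and 350.1 in PD-L1 high, against 200.3, 198 and 201 in treated all, and 410.2 to 418 in untreated all. It rose by 0.79 ± 0.02 (limma adjusted p = 3.3e-07), with Ankrd1 at 0.76 ± 0.04, Amotl2 at 0.66 ± 0.04 and Ccn2 at 0.51 ± 0.07. The member that fell was F3, tissue factor, at −0.91 ± 0.03.

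Growth arrest and stress genes held 4 of the 15 largest falls without overlap. Of 22 genes of the GADD45, TSC22, SESN and DDIT families and related genes 11 fell and 2 rose, with a median of −0.29; 1 rose without PD-L1 high library 2 or 3 or treated all library 1 or 3. Ddit4, an inhibitor of mTORC1, had 54.4, 53.1 and 54.8 in PD-L1 high, against 145, 148 and 147 in treated all, and 31 to 34.3 in untreated all. Gadd45b had 25.6, 26.2 and 27.6 in PD-L1 high, against 74.6, 71.1 and 72.7 in treated all. Txnip, which binds thioredoxin and lowers glucose uptake, had 141, 136 and 145 in PD-L1 high, against 308, 291 and 304 in treated all. None of the 3 overlapped between the groups, at −1.42 ± 0.03, −1.43 ± 0.04 and −1.09 ± 0.03 (limma adjusted p = 1.7e-07, 5.5e-07 and 6.2e-07). Of 14 glucocorticoid-responsive genes 7 fell and 1, Lcn2, rose. Ddit4, Tsc22d3 at −1.32 ± 0.08, Per1 and Errfi1 count in this and other lists, Ddit4 also among the hypoxia genes. ATF4 targets of the integrated stress response were mostly not called, with 1 of 28 risen and 5 fallen, led by Ddit3 at −1.02 ± 0.04; 2 rose without PD-L1 high library 2 or treated all library 2 and 3 without treated all library 1. Of 20 heat shock proteins 0 rose and 8 fell, with Bag3 at −0.47 ± 0.05, while of 25 chaperone and unfolded protein response genes of the endoplasmic reticulum 0 rose and 5 fell. Without treated all library 2, 1 heat shock gene rose, and without treated all library 3, 1 of the endoplasmic reticulum genes. Of 22 NRF2 and iron genes 1 rose and 10 fell, with Osgin1 at −0.68 ± 0.05 and Srxn1 at −0.47 ± 0.05.

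Most tested genes of the circadian clock were lower. In the clock, CLOCK and BMAL1 activate through E-box sequences the period and cryptochrome genes, whose proteins repress them. Of 16 tested clock genes 11 fell and 0 rose, with a median of −0.48; 9 to 12 fell with a library left out. Of the 10 repressors 9 fell. Per1 had 28.9, 25.8 and 28.5 in PD-L1 high, against 56.8, 56.9 and 60.3 in treated all, and 27.1 to 30.4 in untreated all. Bhlhe40 had 119, 115 and 117 in PD-L1 high, against 248, 247 and 247 in treated all, and 137 to 147 in untreated all. Both were lower in each PD-L1 high library, at −1.04 ± 0.05 (limma adjusted p = 1.4e-05) and −1.07 ± 0.03 (adjusted p = 2.1e-07). Cry1, Per2 and Cry2 were at −0.94 ± 0.07, −0.85 ± 0.06 and −0.81 ± 0.06, and the nuclear receptor repressor gene Nr1d1 at −0.52 ± 0.04. The tested activators were not called, though 1 was called lower without treated all library 2. Both groups were labelled with the same hours of IFNγ, and no source used here gives the hour of collection.

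The E-box letters CACGTG were in 5 of 14 clock gene windows (35.7%), against 12.1% of all windows, 11.2% of those of genes called higher and 14.1% of those called lower. Such a share is not particular to clock genes. It was 31.6% in the list of GADD45 and related stress genes and 30.8% in that of lysosome and autophagy genes, though lower in most other lists. The 100 bases before the start of a pair of clock repressors that fell show them in capitals.
Cry1, chr10:85185055-85185154, minus strand: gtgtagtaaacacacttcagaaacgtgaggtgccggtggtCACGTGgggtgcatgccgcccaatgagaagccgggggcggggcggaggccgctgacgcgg
Ciart, chr3:95882229-95882328, minus strand: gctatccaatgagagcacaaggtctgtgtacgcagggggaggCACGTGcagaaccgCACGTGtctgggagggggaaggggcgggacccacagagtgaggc

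**Figure D4:**
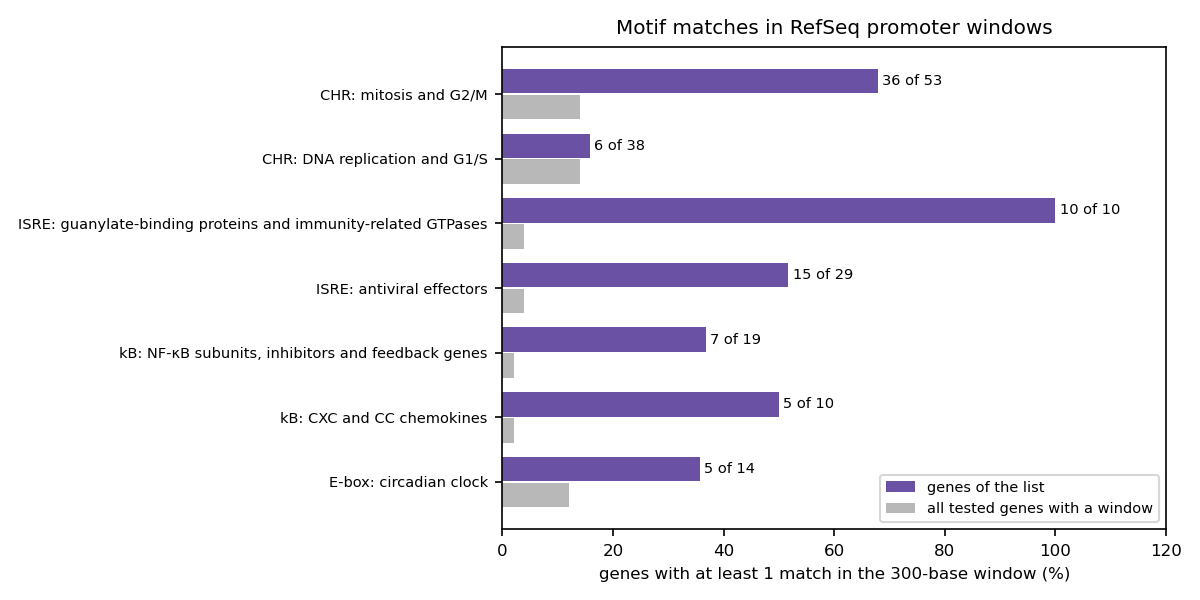
Share of genes with at least 1 match to the named letters in their 300-base promoter window, for the genes of each list (purple, with counts) above all tested genes with a window (grey). The mitosis list reaches 67.9% for CHR against 14% of all genes, and the GTPase list 100% for ISRE against 3.82%.

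Several targets of TGF-β fell. Of 26 tested genes of TGF-β and BMP signalling 9 fell and 1 rose, 6 to 9 falls with a library left out. Of 11 receptors and SMAD transducers 2 fell, or 0 to 1 with a library left out, with a median of −0.10, and of 13 targets and feedback genes 7 fell, with a median of −0.36. Snai1, which encodes a repressor of epithelial genes, had 18.3, 18.3 and 17.8 in PD-L1 high, against 54.7, 53.4 and 52.8 in treated all, and 11.4 to 12.4 in untreated all. Smad7, the inhibitory SMAD, had 28.6, 27.9 and 24.6 in PD-L1 high, against 41.2, 41.6 and 43.6 in treated all. Both lay lower in each PD-L1 high library, at −1.51 ± 0.04 (limma adjusted p = 3.3e-07) and −0.62 ± 0.06 (adjusted p = 3.9e-04), with Skil and Pmepa1, further brakes on the pathway, at −0.46 ± 0.07 and −0.44 ± 0.05. Mesenchymal genes went both ways. Of 20 tested 7 rose and 5 fell, with the related repressor gene Snai2 at 0.39 ± 0.07, tenascin Tnc at 0.41 ± 0.06, fibronectin Fn1 at 0.26 ± 0.03 and Cd44, a hyaluronan receptor, at −0.36 ± 0.04. Of 43 matrix and integrin genes 7 rose and 2 fell, with Col8a1 at 0.47 ± 0.07; 1 fell with any 1 library left out, and 11 rose with upper-quartile scaling.

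Identity genes of the pancreatic duct went both ways. Of 10 transcription factors of duct and endoderm 6 fell and 0 rose, with a median of −0.38. Sox9 had 33.1, 30.5 and 31.4 in PD-L1 high, against 74.9, 71.6 and 74.8 in treated all, and 41.7 to 43.4 in untreated all. It was lower without overlap, at −1.19 ± 0.04 (limma adjusted p = 1.8e-06), with Foxa1 at −0.66 ± 0.11, Elf3 at −0.64 ± 0.05, Foxa2 at −0.61 ± 0.05 and Pdx1 at −0.42 ± 0.04. Of the 4 keratins 3 fell by at most 0.19 and 1, Krt7, rose by 0.51 ± 0.10, a call that was lost without treated all library 1 (limma adjusted p = 0.0545). The adhesion gene Epcam rose by 0.68 ± 0.09, and Lcn2 and Spp1, genes of secreted proteins, by 0.65 ± 0.05 and 0.19 ± 0.02. In the whole list of 24, 6 rose and 9 fell, with 3 rises without treated all library 1 and 4 or 5 without any of the others. Of 12 Notch and Wnt targets 4 fell and 0 rose, among them Nrarp at −1.15 ± 0.06, the Notch ligand gene Jag1 at −0.41 ± 0.06 and Hes1 at −0.29 ± 0.05.

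Metabolic lists shifted little, and mostly down. Of 25 genes of cholesterol synthesis and uptake 9 fell and 0 rose, with a median of −0.17, including Insig1, a brake on sterol synthesis, at −0.64 ± 0.04, Sqle, squalene epoxidase, at −0.49 ± 0.05 and Cyp51, a sterol demethylase, at −0.44 ± 0.05. Of 15 genes of fatty acid synthesis and desaturation 0 rose and 3 fell, with Scd2 at −0.29 ± 0.03. Glycolysis had 3 of 20 risen and 3 fallen, with 1 risen without PD-L1 high library 2 or 3 or treated all library 3. Hk2, hexokinase 2, had 80.6, 79.5 and 76.8 in PD-L1 high, against 124, 124 and 123 in treated all and fell by 0.64 on the log2 scale, while Slc16a3, a lactate exporter, was at 0.26 ± 0.05. Hypoxia genes had 1 of 19 risen and 5 fallen, and their median was 0.00131. Of those that fell, Ddit4, Bhlhe40 and Vegfa are counted in other lists too. Ribosome biogenesis had 15 of 32 fallen and 0 risen, with Heatr1 at −0.33 ± 0.07, Nolc1 at −0.31 ± 0.03 and Gnl3 at −0.29 ± 0.03. Ribosomal protein genes had 13 of 80 fallen, all by at most 0.21, a count that was 2 with upper-quartile scaling and 4 to 10 with a library left out. Of 77 nuclear oxidative phosphorylation genes 71 were not called. Of 184 solute carriers 14 rose and 15 fell, beside 8.22% and 9.85% of all genes. These counts were 8 to 10 rises and 9 to 15 falls when a library was left out. Lysosome and autophagy genes had 7 of 34 risen and 2 fallen, or 1 fallen without PD-L1 high library 1 or 2 or treated all library 3, with Lamp2 at 0.23 ± 0.03, Ctsd, cathepsin D, at 0.19 ± 0.02 and the autophagy receptor gene Sqstm1 at −0.34 ± 0.02. Of 20 aminoacyl-tRNA synthetases 1 rose, the IFNγ-inducible Wars at 0.30 ± 0.02, and 3 fell, with 1 or 2 falls when a library was left out. Of 32 cell death genes 4 rose and 3 fell, with 1 or 2 rises when a library was left out and with Bcl2l11, which encodes BIM, at −0.36 ± 0.07.

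**Figure D5:**
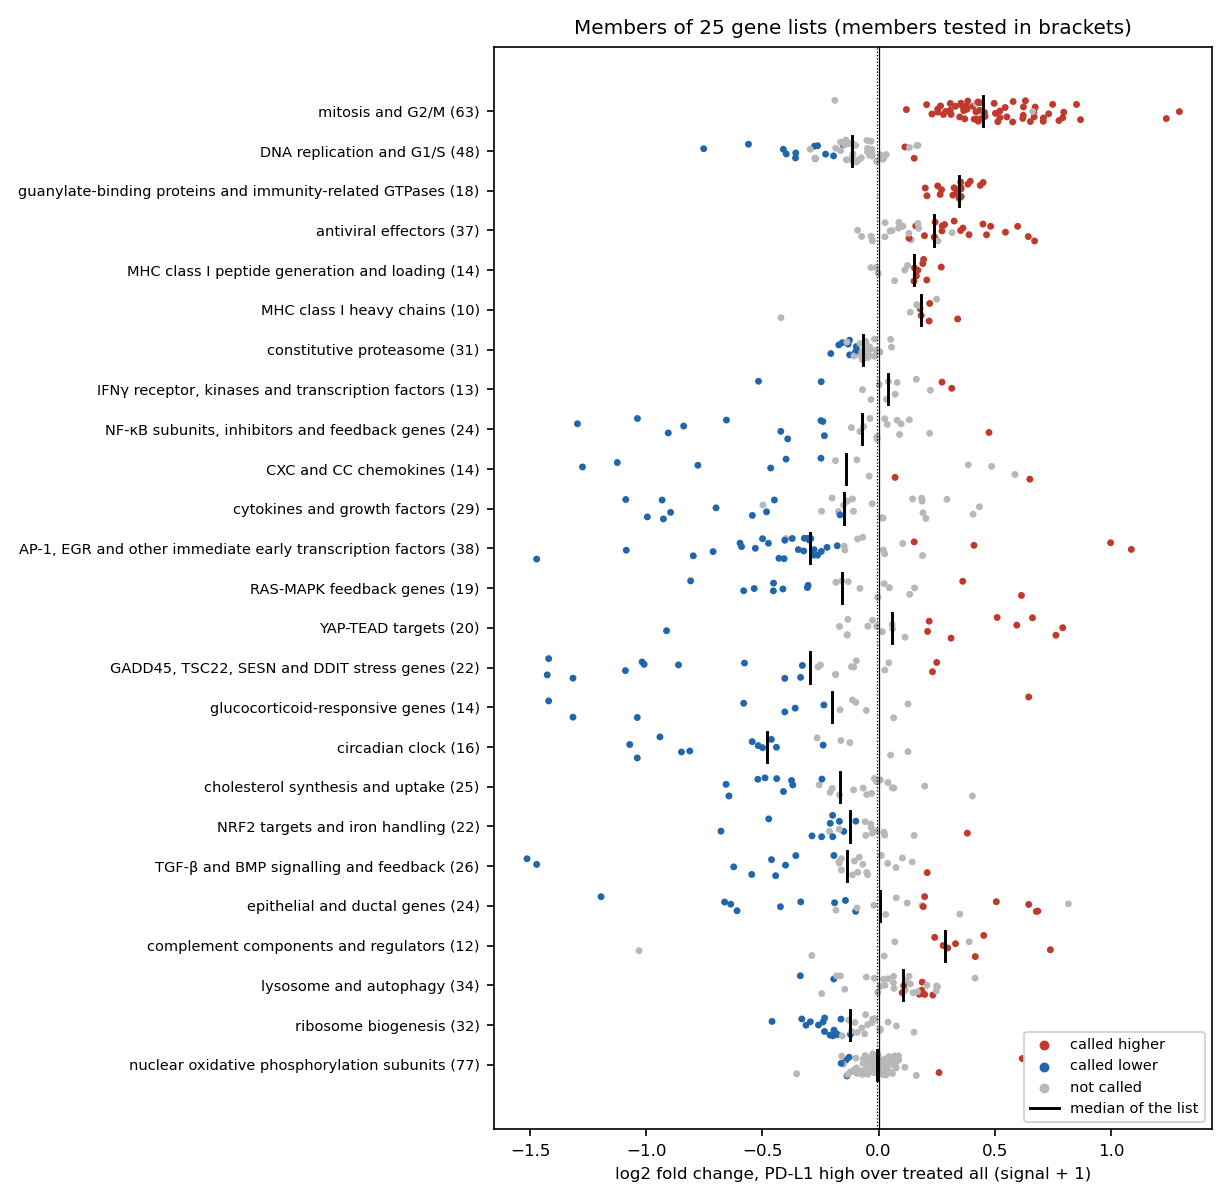
Log2 fold change of PD-L1 high over treated all for the tested members of 25 gene lists, 1 point a gene, red called higher, blue called lower and grey not called, with a black bar at each list's median and a dotted line at the median of all genes. The mitosis and GTPase lists lie right of 0, at medians of 0.45 and 0.35, and of the 25 lists the clock list has the lowest median, −0.48.

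Some of the largest single differences belonged to no list. U90926, a mouse gene of unsettled function, had 67.7, 67 and 50.1 in PD-L1 high, against 3.18, 4.53 and 3.08 in treated all, and 228 to 235 in untreated all. It was the largest called rise, at 3.77 ± 0.15 (limma adjusted p = 1.3e-05), with PD-L1 high library 3 below libraries 1 and 2. The acute phase gene Saa3 was at 1.13 ± 0.17, the DNA helicase gene Pif1 at 0.97 ± 0.13, Frat2, a GSK3-binding protein gene, at 0.91 ± 0.09 and Mir17hg, the host of a microRNA cluster, at 0.89 ± 0.13. On the falling side stood Ramp3, a partner of the calcitonin receptor family, with 5.47, 4.72 and 5.47 in PD-L1 high, against 15.8, 18.3 and 15.6 in treated all, at −1.50 ± 0.09, and Hic1, a transcriptional repressor gene, at −1.16 ± 0.08. Bdkrb2, a bradykinin receptor gene, was at −1.13 ± 0.11 and Hoxa3 at −1.13 ± 0.08. All 5 called genes of highest signal that rose did so by at most 0.34 on the log2 scale, led by S100a11 and followed by Ly6a, at 0.34 ± 0.02 and 0.22 ± 0.01. Of the 5 that fell, the ferritin chain Ftl1 had the largest difference, at −0.20 ± 0.02.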

How the data were processed

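RNA-seq libraries were made with a TruSeq kit, per the labels. Build mm10 and CASAVA 1.7 stand in the submitters' processing notes, without aligner, counter or annotation. The authors deposited a normalized signal in 1 table of genes by 10 libraries, and its 3 columns of group means were not used. Depth is unknown, no count test was possible, and precision rests on the number of libraries. The deposited signal carries a pattern: in 99.28% of genes checked, differences within groups were whole multiples (within 0.01 of a step) of 0.01 times 1 factor per gene (median 0.9073), while 99.8% of differences between group sums were whole multiples of 0.01. The spread within groups may therefore be understated and adjusted p-values too small; 1 alternative divides it by the factor.

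Samples were grouped by their titles. Of 25507 rows, 695 had no value and rows of 52 shared symbols were added up, giving 24755 genes, of which 11487 with a mean of at least 1 over the 10 libraries were tested and 13268 were not. Values were tested as log2(signal + 1), which understates the fold of low genes, with limma 3.58.1 in R 4.3.3 (variance trend, robust) on the 6 libraries, and adjusted by Benjamini-Hochberg over all 11487 genes. Untreated libraries were left out of the fit because libraries 3 and 4 appear aligned to 1 and 2. Deviations of same-numbered libraries correlated weakly, at 0.023, 0.104 and 0.046, against −0.072 to 0.022 for other pairs. The main fit used no pairing, and an alternative fit took the replicate number as a block. On simulated data with 200 changed genes among 11487, the fit made 4 false calls. There it found 38% of genes changed 1.25-fold, 80% of those changed 1.5-fold and 88% of those changed 2-fold. The deposited data had 2075 calls, many more than 200 genes, so these figures do not carry over to them. How many of the 2075 calls are false, and how many changes were missed, was not tested.

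The comparison, the 49 gene lists, the motifs and the rule for named genes were chosen with earlier results of these data known, and the subgroups by role after the values were seen; lists are described by counts and medians, with no test. Named genes were 12 interferon and checkpoint genes, the 15 largest called rises and 15 falls without overlap, the called members of a list with the lowest adjusted p (at most 4) (any member of lists ordered by role) and the 5 called genes of highest signal each way. Gm, Rik and pseudogene names were left out. From these, mainly genes whose call was kept under every alternative are described; Ccn2, Csf3, Gbp5, Heatr1, Ifit1, Iigp1, Krt7, Tgtp2 and Trim21 lie outside the rule and were chosen after their values were seen. Some genes are not reported here. Promoter windows are RefSeq's (GRCm38.p6), matched by symbol for 9233 genes, and 8 motifs were searched on both strands. Python 3.11.15, pandas 2.3.3, numpy 2.4.6 and matplotlib 3.10.9 were used.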

Additional observations from a re-analysis of the deposited data

How the results depend on the processing

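Of all 2075 called genes, 996 kept their call under every one of the 18 alternatives. Among the called genes named here, 163 of 167 did so, a share that follows from naming mainly genes with such calls. No gene named here changed sign with a call under any alternative. The named genes that lost their call were Krt7, Rrm2, Tk1 and Tgtp1. Tgtp1 had a limma adjusted p of 0.0821 with all 10 libraries in the fit and 0.135 with 8. Cd274 was called in every fit. The count of called genes was 1374 to 1616 with 1 library left out, 643 to 700 of them higher and 701 to 916 lower. The total fell by over 1.5 times without treated all library 1 or 3 (1374 and 1382). The lower count also did so without PD-L1 high library 2 (733), beside 701 and 738 without those treated libraries; the higher count moved by less than 1.5 times. Requiring 1.5-fold left 213 genes, 96 higher and 117 lower. With all 10 libraries 2943 genes were called, without the filter 1576 of 17783, with a mean of at least 5 2030, without trend and robust variances 1706, and with pseudocounts of 0.1 and 5 2076 and 2077. The fit with the replicate number as a block called 1609 genes. Each library correlated best with the one of its number, but PD-L1 high library 1 did so at 0.023 against 0.022 with treated all library 3. This comes from the data, not the design, and whether libraries were paired was not tested. Dividing deviations by the factor, chosen after seeing the data, left 1634. Upper-quartile and median-ratio scaling gave 2034 and 2018 calls and moved the share of higher ones to 58.1% and 54.2%, against 45.5%. Replication genes called lower were 21 with all 10 libraries. The causes were not tested. Unknown depth sets no floor for genes listed at 0.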
